A study of Mus musculus with 12 samples.

Results

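The mitotic spindle and G2/M genes described here are 51 named genes whose products drive entry into mitosis, build the spindle, attach chromosomes to it and split the cell. They were taken from a list of names, and all 51 were found among the 15651 genes of the table of TPM values (a transcript level corrected for length and scaled to one total per library). The cells were c-Kit+ splenocytes of moribund mice with acute myeloid leukemia (AML), enriched on CD117 microbeads and cultured with stem cell factor, IL-6 and IL-3. All mice carried 2 copies of an activating internal tandem duplication of the receptor Flt3 (Flt3ITD/ITD) and the Cre recombinase under the interferon-responsive Mx1 promoter. D/F mice carried floxed alleles of the DNA methyltransferase Dnmt3a (Dnmt3afl/fl,Flt3ITD/ITD,Mx1Cre), and T/F mice floxed alleles of the 5-methylcytosine dioxygenase Tet2 (Tet2fl/fl,Flt3ITD/ITD,Mx1Cre). No inducer of Cre was given and cells lost 1 or both floxed alleles spontaneously. No library came from mice with intact Dnmt3a and Tet2. Cells of each of 3 D/F and 3 T/F mice were split between DMSO and CCS1477, an inhibitor of the bromodomains of the histone acetyltransferases p300 and CBP, for 6 hours, which gave 12 libraries in 4 groups of 3. The CCS1477 concentration was 4 µM for D/F and 2 µM for T/F cells, so dose and genotype cannot be told apart wherever the 2 responses are compared.

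Most of these genes are transcribed in waves that peak as cells pass from late S phase through G2 into mitosis, and many of their proteins are destroyed as mitosis ends. Between divisions the DREAM repressor complex, which holds E2f4 and the MuvB core, keeps them low, and later B-Myb (Mybl2) joined to MuvB and then Foxm1 activate them. Repressors and activators of this group are known to use a cell cycle genes homology region (CHR) and upstream CCAAT boxes close to the start of transcription. In a bulk sample their summed level is often read as a sign of proliferation, but more cells in G2 and M and more RNA per such cell cannot be told apart.

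Most of the mitotic genes were higher with CCS1477 in T/F cells, and each rise was below 2-fold. In T/F cells, 44 of 51 were higher with CCS1477 than with DMSO at an adjusted p under 0.05 and none was lower (limma on log2(TPM + 1), 3 samples a group, Benjamini-Hochberg over all genes tested), beside 25.8% of all genes tested that were called higher. In D/F cells the same test called 5 of 51 higher (Cenpf, Melk, Cenpa, Cdc25c and Mki67) and none lower, beside 5.14% of all genes. Over both genotypes with genotype as a term, 34 of 51 were higher and none lower, beside 25.8% of all genes. The 51 genes had a median log2 fold change of 0.35 for D/F, 0.47 for T/F and 0.42 for both genotypes, against 0.06, 0.07 and 0.07 over all genes tested. Lower calls made up 6.51%, 17.6% and 19.6% of all genes in the D/F, T/F and joint comparisons. No mitotic gene was called above 2-fold in any of them, beside 2.67%, 2.63% and 3.10% of all genes that were higher and 4.61%, 4.70% and 5.70% that were lower by that limit. The 7 genes not called in T/F cells were Aurka, Pbk, Cdc20, Aurkb, Cdca8, Kif20a and Hmmr. The genes called in T/F cells rose by between 1.18-fold and 1.92-fold, and those called in D/F cells by between 1.53-fold and 1.87-fold, on the log2(TPM + 1) scale.

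The D/F count depended on how the mice were treated in the fit. With the mouse as a block, which sets the DMSO and CCS1477 cells of a mouse against each other, 25 of 51 were higher in D/F cells and none lower, beside 21.4% and 18.0% of all genes. The 20 added genes had adjusted p values between 0.0112 and 0.0482 in limma. They were Cdk1, Ccnf, Nek2, Bub1, Ttk, Birc5, Cenpe, Kif11, Kif14 and Kif18b, and Kif23, Kifc1, Nusap1, Aspm, Ckap2l, Dlgap5, Ect2, Racgap1, Top2a and Foxm1. Single-gene D/F results below come from the fit without the mouse term unless stated. In the fit without the mouse term, leaving out D/F mouse 1 or mouse 3 left no call among the 51 or among all genes. Leaving out mouse 2 gave 15 of 51, with no share of all genes set beside it. In T/F cells the block gave 46 of 51 higher and none lower (31.2% and 22.9% of all genes). Without the block, leaving out T/F mouse 1 or mouse 2 gave 24 and 19, also with no such share. Over both genotypes the block gave 43 higher and none lower, beside 34.5% and 25.9% of all genes. Higher levels with CCS1477 were seen in all 6 mice for 39 of 51 genes, beside 31.8% of all genes, and none of the 51 was lower in all 6, beside 24.2%. All 3 CCS1477 samples lay above all 3 DMSO samples for 24 genes in D/F (19.9% of all genes) and for 47 in T/F (33.5%). The opposite order was not seen in any of the 51, beside 16.7% of all genes for the D/F groups and 22.6% for the T/F groups.

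**Figure D1:**
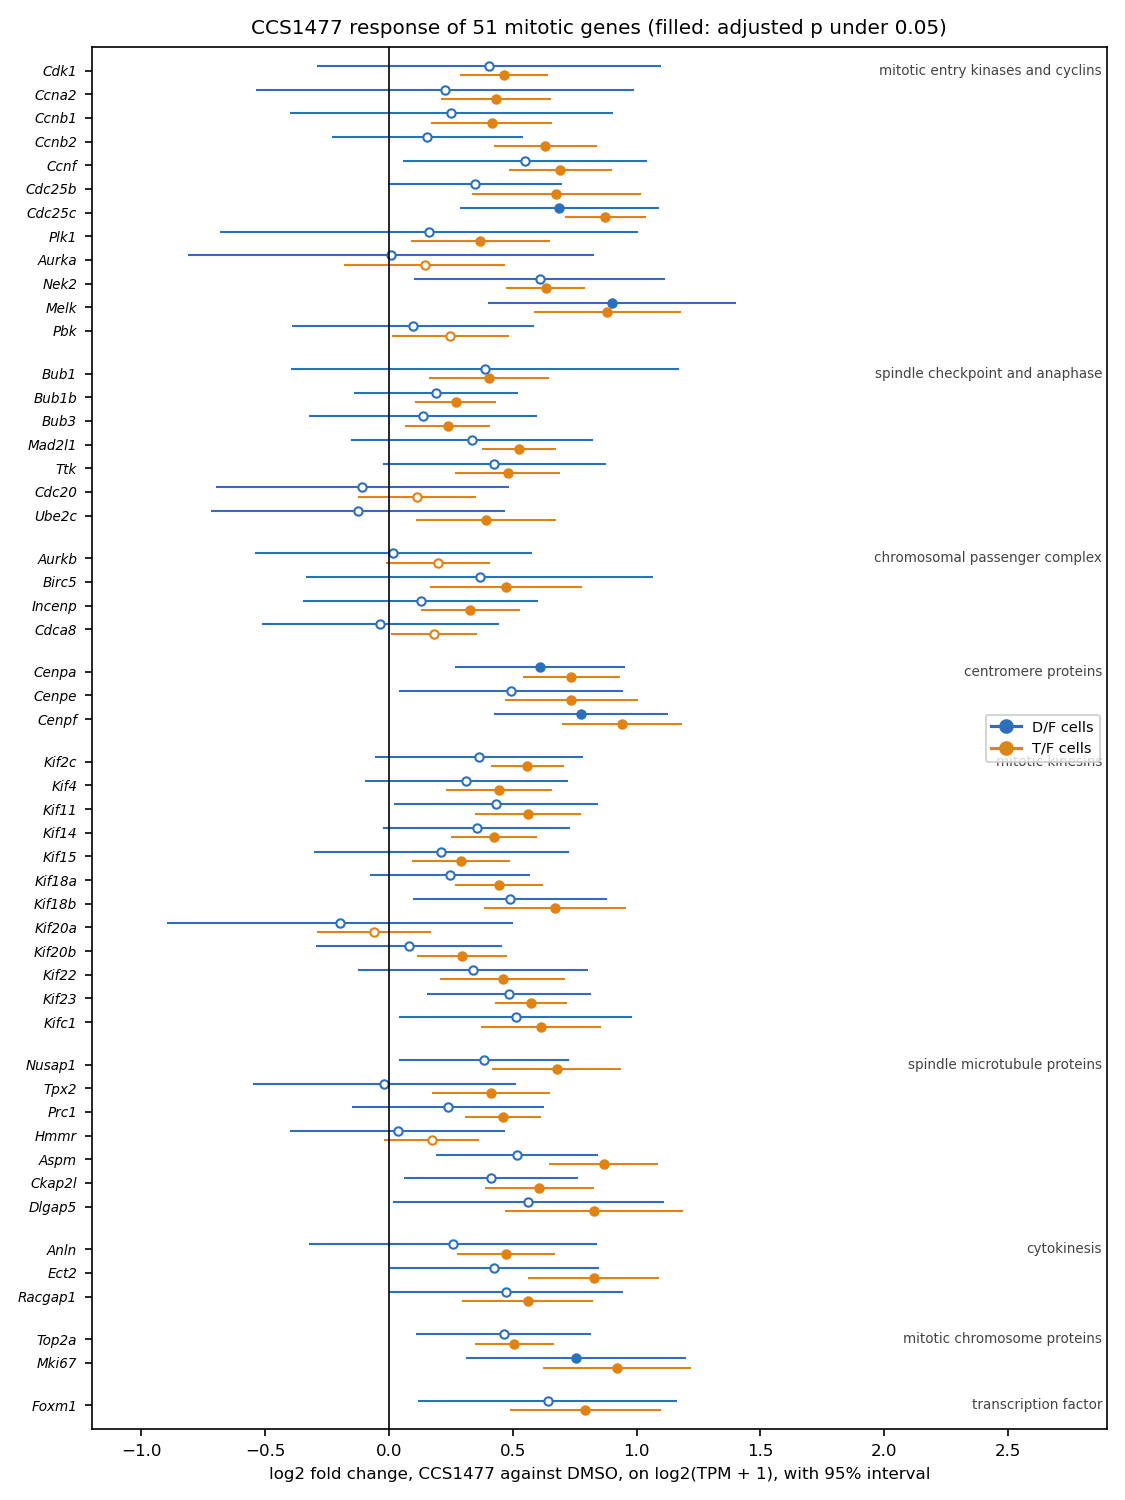
Log2 fold change (x axis, CCS1477 against DMSO on log2(TPM + 1), with 95% interval from limma) of the 51 mitotic genes (y axis, by role) in D/F (blue) and T/F (orange) cells. Filled points mark an adjusted p under 0.05, 5 in D/F and 44 in T/F, and the D/F interval is the wider one for each of the 51 genes.

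Promoter sequences were available in RefSeq (GRCm38.p6, 250 bases before to 50 after an annotated start) for 42 of the 51 genes, in 45 windows. Cdc25c, Foxm1, Pbk, Tpx2, Incenp, Ccna2, Aurkb, Dlgap5 and Kif20a had no window. A CHR motif (TTTGAA or TTCGAA, on either strand) was found in 34 of the 42 genes, in 37 of the 45 windows, beside 19.2% of all 32851 windows of the table. A CCAAT motif on either strand was found in 33 of the 42 genes, in 36 windows, beside 37.4% of all windows. Both motifs were present in 30 of the 42 genes (33 windows), beside 7.52% of all windows, whereas the E-box CACGTG was found in Anln and Ttk only, beside 7.15% of all windows. Matches of the 2 kinds were counted without regard to overlap, and a match is a description of letters, not of a bound site.

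The windows printed next are those of the genes called in both genotypes that had one, of Cdc20, whose change over both genotypes was nearest to 0, and of Ube2c, whose difference had opposite signs in the 2 genotypes. Each runs 5′ to 3′ on the strand of the gene, from 200 bases before the annotated start to 25 after it, on GRCm38.p6, with CHR and CCAAT motifs (either strand) in capitals. The positions are chr1:189688062-189688286 (minus strand) for Cenpf, chr5:30666686-30666910 (plus strand) for Cenpa, chr7:135716355-135716579 (minus strand) for Mki67, chr4:44300717-44300941 (plus strand) for Melk, chr4:118437319-118437543 (minus strand) for Cdc20 and chr2:164769729-164769953 (plus strand) for Ube2c.
Cenpf: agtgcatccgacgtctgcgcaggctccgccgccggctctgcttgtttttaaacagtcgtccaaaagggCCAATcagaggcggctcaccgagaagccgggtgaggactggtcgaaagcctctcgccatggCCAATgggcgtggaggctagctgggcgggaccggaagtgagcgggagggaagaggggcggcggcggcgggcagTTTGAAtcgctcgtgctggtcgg
Cenpa: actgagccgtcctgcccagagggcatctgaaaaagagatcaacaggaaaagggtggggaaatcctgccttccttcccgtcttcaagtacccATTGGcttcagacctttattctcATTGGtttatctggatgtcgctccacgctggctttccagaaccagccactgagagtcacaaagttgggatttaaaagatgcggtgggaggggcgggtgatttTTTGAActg
Mki67: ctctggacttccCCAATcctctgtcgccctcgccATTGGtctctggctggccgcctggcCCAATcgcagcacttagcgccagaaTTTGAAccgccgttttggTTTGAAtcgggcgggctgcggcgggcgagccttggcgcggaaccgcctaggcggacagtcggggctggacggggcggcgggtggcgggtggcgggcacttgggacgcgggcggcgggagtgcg
Melk: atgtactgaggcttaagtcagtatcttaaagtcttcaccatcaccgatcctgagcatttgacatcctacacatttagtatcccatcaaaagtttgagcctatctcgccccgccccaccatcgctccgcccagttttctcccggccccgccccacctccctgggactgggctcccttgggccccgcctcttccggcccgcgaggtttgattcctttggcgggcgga
Cdc20: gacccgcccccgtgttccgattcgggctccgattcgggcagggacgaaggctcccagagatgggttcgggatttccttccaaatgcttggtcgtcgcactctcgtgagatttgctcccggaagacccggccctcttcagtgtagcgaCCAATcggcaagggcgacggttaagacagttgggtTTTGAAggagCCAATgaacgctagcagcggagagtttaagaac
Ube2c: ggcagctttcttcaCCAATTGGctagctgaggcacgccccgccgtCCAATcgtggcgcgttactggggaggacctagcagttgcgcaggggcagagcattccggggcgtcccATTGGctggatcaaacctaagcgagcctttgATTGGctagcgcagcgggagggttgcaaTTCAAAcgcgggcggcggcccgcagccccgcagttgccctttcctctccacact
Cenpf, Cenpa and Mki67 hold both motifs, Melk holds neither, and Cdc20 and Ube2c, which did not rise in D/F cells, hold both as well.

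**Figure D2:**
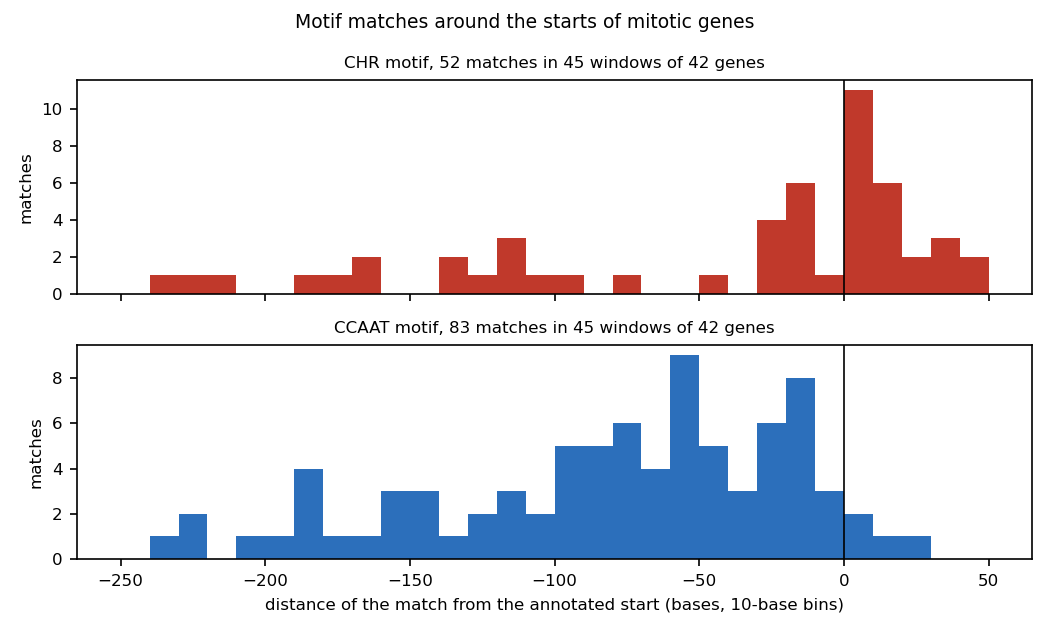
Number of CHR matches (top, 52) and CCAAT matches (bottom, 83) in 10-base bins (y axis) against their distance in bases from the annotated start (x axis, 0 at the start) in the 45 windows of 42 mitotic genes. Of the CHR matches 36 start between -50 and 49, beside 25.2% of the CHR matches of all windows. Of the CCAAT matches 54 start between -100 and -1, beside 43.6% of the CCAAT matches of all windows. Windows of Bub3, Ect2 and Prc1 overlap, so a site shared by the windows of a gene was counted in each.

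Cdk1, the kinase that drives entry into mitosis, was the most abundant of the 12 mitotic entry kinases, cyclins and their regulators, at a mean of 368 TPM over the 12 libraries. In D/F cells of mice 1, 2 and 3 it was at 347, 227 and 340 TPM with DMSO and 454, 277 and 494 TPM with CCS1477. In T/F cells it was at 328, 327 and 303 TPM with DMSO and 454, 453 and 416 TPM with CCS1477. The T/F groups did not overlap and Cdk1 rose 1.38-fold there (log2 0.46, SE 0.07, adjusted p = 0.00389, limma), whereas the D/F groups overlapped, with mouse 2 low under both treatments (log2 0.40, SE 0.29, adjusted p = 0.39, limma). With the mouse as a block Cdk1 was among the 20 genes added in D/F.

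Cdc25c, a phosphatase that removes the inhibitory phosphates from Cdk1, rose in both genotypes. Its levels were 20.1, 18.2 and 18.9 TPM with DMSO and 32.7, 26.3 and 35.6 TPM with CCS1477 in D/F cells. Cdc25c levels in T/F cells were 17.8, 18.7 and 17.5 TPM with DMSO and 33.8, 35.5 and 32.4 TPM with CCS1477. All 6 CCS1477 samples lay above all 6 DMSO samples, with a 1.61-fold rise in D/F (log2 0.69, SE 0.17, adjusted p = 0.046) and a 1.83-fold rise in T/F (log2 0.87, SE 0.06, adjusted p = 0.00055, both limma). The T/F call had the lowest adjusted p of the 51 genes in that comparison.

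Melk, a kinase found in dividing and progenitor cells, showed the highest fold of the 51 in D/F cells. It was at 19.2, 14.6 and 18.5 TPM with DMSO and 36.1, 26.2 and 38.6 TPM with CCS1477 in D/F cells. Melk levels in T/F cells were 23.9, 24.3 and 19.3 TPM with DMSO and 46.0, 42.9 and 37.9 TPM with CCS1477. Again the groups were separate in both genotypes, at 1.87-fold in D/F (log2 0.90, SE 0.21, adjusted p = 0.0406) and 1.84-fold in T/F (log2 0.88, SE 0.12, adjusted p = 0.00263, both limma).

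Ccnb2, one of the B-type cyclins that bind Cdk1, was at 104, 97.7 and 84.0 TPM with DMSO and 115, 95.7 and 107 TPM with CCS1477 in D/F cells. In T/F cells it was at 94.7, 88.1 and 80.8 TPM with DMSO and 142, 138 and 129 TPM with CCS1477. It rose in T/F (log2 0.63, SE 0.08, adjusted p = 0.00251, limma), while the D/F groups overlapped (log2 0.15, SE 0.16, adjusted p = 0.558, limma). Of the other 8 genes of this group, Ccna2, Ccnb1, Ccnf, Cdc25b, Plk1 and Nek2 rose in T/F cells and Aurka and Pbk did not pass the test there. Over both genotypes 7 of the 12 were higher, beside 25.8% of all genes, namely Cdk1, Ccnb2, Ccnf, Cdc25b, Cdc25c, Nek2 and Melk. The group had a median log2 fold change of 0.30 for D/F and 0.55 for T/F. Aurka, the spindle pole kinase, was named after its values were seen, with log2 differences of 0.01 for D/F and 0.14 for T/F.

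**Figure D3:**
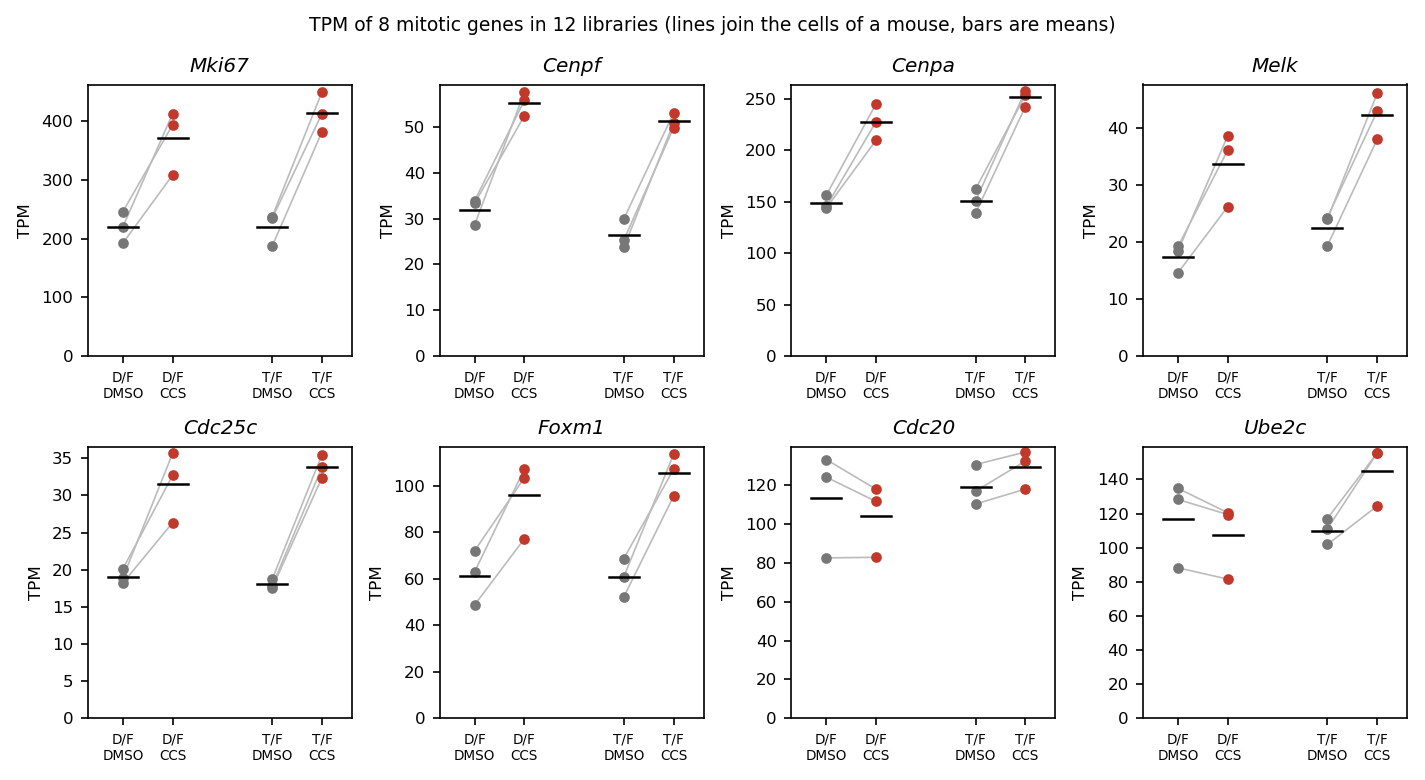
Levels (y axis, TPM from 0) of 8 mitotic genes in the 12 libraries, by genotype and treatment (x axis, CCS for CCS1477), with lines joining the cells of a mouse and bars at the means. In Mki67, Cenpf, Cenpa, Melk, Cdc25c and Foxm1 every CCS1477 sample lies above every DMSO sample of its genotype, whereas in Cdc20 and Ube2c the D/F groups overlap.

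Among the 7 genes of the spindle checkpoint and of the start of anaphase, 6 rose in T/F cells, beside 25.8% of all genes. None passed the test in D/F without the mouse term, beside 5.14% of all genes. With the mouse as a block Bub1 and Ttk passed there, beside 21.4% of all genes. Over both genotypes 3 rose (Bub1b, Mad2l1 and Ttk), beside 25.8% of all genes. Mad2l1 (Mad2), which holds back anaphase while kinetochores are unattached, was at 166, 126 and 146 TPM with DMSO and 192, 148 and 216 TPM with CCS1477 in D/F cells. Mad2l1 levels in T/F cells were 140, 138 and 134 TPM with DMSO and 205, 195 and 194 TPM with CCS1477. The T/F samples of the treatments were far apart (log2 0.52, SE 0.06, adjusted p = 0.00159, limma), and in D/F each mouse was higher with CCS1477 but the groups overlapped through mouse 2 (log2 0.34, SE 0.20, adjusted p = 0.314, limma). Ttk (Mps1), the kinase that starts the checkpoint signal, was at 31.7, 27.1 and 32.1 TPM with DMSO and 43.4, 33.2 and 47.6 TPM with CCS1477 in D/F cells. Ttk levels in T/F cells were 31.9, 29.8 and 28.6 TPM with DMSO and 46.6, 40.2 and 40.4 TPM with CCS1477. Treated and control samples were separate for each genotype (exact permutation p = 0.1, the smallest that 3 against 3 allows). Ttk passed limma's test in T/F (adjusted p = 0.00669) and over both genotypes (adjusted p = 0.00243) but not in D/F (adjusted p = 0.182).

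Cdc20 and Ube2c, which act when the checkpoint is released, were the genes of this group with a log2 difference below 0 in D/F cells. Cdc20, which activates the anaphase-promoting complex and was singled out after its values were seen, was at 124, 82.6 and 133 TPM with DMSO and 112, 82.9 and 118 TPM with CCS1477 in D/F cells. Cdc20 levels in T/F cells were 131, 117 and 110 TPM with DMSO and 137, 132 and 118 TPM with CCS1477. The groups overlapped in both genotypes and the log2 fold change over both was 0.00 (SE 0.13, adjusted p = 0.986, limma). Ube2c, the ubiquitin-conjugating enzyme of that complex, also singled out afterwards, was at 128, 88.2 and 135 TPM with DMSO and 119, 81.6 and 120 TPM with CCS1477 in D/F cells. Ube2c levels in T/F cells were 117, 111 and 102 TPM with DMSO and 155, 155 and 124 TPM with CCS1477. Each D/F mouse was lower with CCS1477, within overlapping groups (log2 -0.12, SE 0.25, adjusted p = 0.778, limma), and each T/F mouse was higher, with no overlap (log2 0.39, SE 0.11, adjusted p = 0.0356, limma).

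The chromosomal passenger complex, which corrects faulty attachments and later guides cytokinesis, had the lowest median of the groups with 3 or more genes in both genotypes, 0.07 in D/F and 0.26 in T/F (log2). Birc5 (survivin) and Incenp rose in T/F cells, beside 25.8% of all genes. Aurkb, the kinase of the complex, and Cdca8 (borealin) did not pass the test in either genotype. Birc5 was at 145, 88.0 and 132 TPM with DMSO and 176, 110 and 189 TPM with CCS1477 in D/F cells. Birc5 levels in T/F cells were 144, 143 and 113 TPM with DMSO and 199, 186 and 168 TPM with CCS1477. It was higher with CCS1477 in all 6 mice and passed the test over both genotypes (log2 0.42, SE 0.16, adjusted p = 0.0498, limma). Birc5 was the only gene of the complex to pass over both genotypes, beside 25.8% of all genes, so the complex did not stand out there. D/F mouse 2 was the lowest of its group under both treatments.

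Centromere proteins had the highest median among the role groups of 3 or more, 0.61 in D/F and 0.74 in T/F (log2). All 3 of them rose in T/F and over both genotypes, beside 25.8% of all genes in each comparison. Cenpf, a large kinetochore protein made in G2, was at 33.9, 33.3 and 28.6 TPM with DMSO and 55.8, 52.5 and 57.6 TPM with CCS1477 in D/F cells. Cenpf levels in T/F cells were 30.0, 25.3 and 23.8 TPM with DMSO and 53.1, 49.9 and 50.9 TPM with CCS1477. All 6 CCS1477 samples stood above all 6 DMSO samples, and Cenpf had the highest fold in T/F of the 51 genes, 1.92 (log2 0.94, SE 0.10, adjusted p = 0.00124), and rose 1.71-fold in D/F (log2 0.78, SE 0.14, adjusted p = 0.0249, both limma). D/F mouse 2, low for most of the 51 genes, was not the lowest for Cenpf under DMSO.

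Cenpa, the histone H3 variant that marks the centromere, was at 156, 144 and 145 TPM with DMSO and 245, 210 and 228 TPM with CCS1477 in D/F cells. Cenpa levels in T/F cells were 151, 162 and 139 TPM with DMSO and 258, 253 and 242 TPM with CCS1477. The treatments were again separate, with rises of 1.53-fold in D/F (log2 0.61, SE 0.14, adjusted p = 0.0422) and 1.67-fold in T/F (log2 0.74, SE 0.08, adjusted p = 0.00133, both limma). Cenpe, a kinesin that carries chromosomes to the spindle equator, rose in T/F (log2 0.74, adjusted p = 0.00348, limma) and not at the threshold in D/F (log2 0.49, adjusted p = 0.134, limma).

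Mitotic kinesins are motor proteins that slide, cross-link or shorten spindle microtubules. Of the 12, 11 rose in T/F cells and 9 over both genotypes, beside 25.8% of all genes in each comparison. None passed the test in D/F without the mouse term, beside 5.14% of all genes. With the mouse as a block Kif11, Kif14, Kif18b, Kif23 and Kifc1 passed there, beside 21.4% of all genes. Kif11 (Eg5), which pushes the spindle poles apart, was at 97.2, 79.4 and 90.9 TPM with DMSO and 126, 103 and 134 TPM with CCS1477 in D/F cells. Kif11 levels in T/F cells were 94.0, 95.5 and 81.2 TPM with DMSO and 138, 135 and 127 TPM with CCS1477. Neither genotype showed overlap (exact permutation p = 0.1 in each), with a log2 fold change of 0.43 (SE 0.17) in D/F and 0.56 (SE 0.09) in T/F. Kif23, the motor of the centralspindlin complex, was at 50.2, 46.5 and 48.4 TPM with DMSO and 65.5, 66.3 and 72.6 TPM with CCS1477 in D/F cells. Kif23 levels in T/F cells were 52.1, 50.8 and 49.7 TPM with DMSO and 78.2, 75.1 and 75.2 TPM with CCS1477. The samples within each group lay close together, and Kif23 had the lowest p of the kinesins over both genotypes (log2 0.53, SE 0.06, adjusted p = 4.01e-05, limma), against adjusted p = 0.0672 for D/F and 0.00115 for T/F.

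Kif20a, the motor that brings the passenger complex to the midzone, was the one kinesin not called in T/F cells and was singled out after its values were seen. It was at 81.0, 50.6 and 81.6 TPM with DMSO and 68.9, 43.2 and 74.1 TPM with CCS1477 in D/F cells. Kif20a levels in T/F cells were 84.8, 78.4 and 72.4 TPM with DMSO and 78.0, 79.0 and 68.8 TPM with CCS1477. Kif20a was lower under CCS1477 in 5 of 6 mice with overlapping groups and was not called (log2 -0.13 over both genotypes, SE 0.15, adjusted p = 0.531, limma). Its paralog Kif20b and Kif15 passed the test in T/F and not over both genotypes. The other 7 kinesins (Kif2c, Kif4, Kif14, Kif18a, Kif18b, Kif22 and Kifc1) rose in T/F and over both genotypes, with log2 fold changes over both between 0.35 for Kif18a and 0.58 for Kif18b.

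Among 7 spindle microtubule proteins, 6 rose in T/F cells and 5 over both genotypes, beside 25.8% of all genes in each comparison. None passed the test in D/F without the mouse term, beside 5.14% of all genes. With the mouse as a block Nusap1, Aspm, Ckap2l and Dlgap5 passed there, beside 21.4% of all genes. Aspm, which organises spindle poles, was at 32.3, 32.7 and 30.0 TPM with DMSO and 45.1, 44.2 and 47.8 TPM with CCS1477 in D/F cells. Aspm levels in T/F cells were 28.5, 25.4 and 24.8 TPM with DMSO and 52.9, 46.8 and 46.3 TPM with CCS1477. CCS1477 samples were above DMSO samples in both genotypes, and the rise passed the test in T/F (1.82-fold, log2 0.87, SE 0.09, adjusted p = 0.00118, limma) and fell just outside it in D/F (log2 0.52, SE 0.13, adjusted p = 0.0565, limma). Tpx2, which activates Aurora A and nucleates spindle microtubules, was at 154, 113 and 142 TPM with DMSO and 150, 104 and 153 TPM with CCS1477 in D/F cells. Tpx2 levels in T/F cells were 142, 128 and 117 TPM with DMSO and 183, 171 and 161 TPM with CCS1477. The D/F groups had overlapping ranges (log2 -0.02, SE 0.22, adjusted p = 0.967, limma), while all 3 T/F mice were higher with no overlap (log2 0.41, SE 0.09, adjusted p = 0.0164, limma). Nusap1, Prc1, Ckap2l and Dlgap5 rose in T/F and over both genotypes, and Hmmr did not pass the test in either genotype (log2 0.03 in D/F and 0.17 in T/F).

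The 3 cytokinesis genes rose in T/F and over both genotypes, beside 25.8% of all genes in each comparison. With the mouse as a block Ect2 and Racgap1 also passed in D/F, beside 21.4% of all genes. Ect2, the exchange factor that switches on RhoA at the division plane, was at 68.3, 56.9 and 65.3 TPM with DMSO and 98.5, 72.5 and 87.2 TPM with CCS1477 in D/F cells. Ect2 levels in T/F cells were 54.3, 68.1 and 56.9 TPM with DMSO and 114, 100 and 106 TPM with CCS1477. Both genotypes were without overlap, but the T/F rise was of 0.83 (SE 0.11, adjusted p = 0.00231) and the D/F difference of 0.43 (SE 0.17, adjusted p = 0.159) on the log2 scale in limma. Racgap1, the partner of Kif23 in centralspindlin, was at 109, 77.3 and 92.7 TPM with DMSO and 136, 109 and 142 TPM with CCS1477 in D/F cells. Racgap1 levels in T/F cells were 106, 105 and 88.2 TPM with DMSO and 156, 153 and 133 TPM with CCS1477. The lowest D/F CCS1477 sample, that of mouse 2, met the highest D/F DMSO sample, that of mouse 1, and the log2 difference of 0.47 (SE 0.19) was not called (adjusted p = 0.162, limma), against 0.56 (SE 0.11, adjusted p = 0.00827) in T/F. Anln (anillin), the scaffold of the contractile ring, rose in T/F (log2 0.47, adjusted p = 0.0053, limma).

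Top2a, the topoisomerase that untangles sister chromatids, was the most abundant of all 51 genes, at a mean of 665 TPM over the 12 libraries, against 21.8 TPM for Kif14, the least abundant. It was at 581, 503 and 533 TPM with DMSO and 755, 685 and 789 TPM with CCS1477 in D/F cells. Top2a levels in T/F cells were 593, 570 and 545 TPM with DMSO and 828, 813 and 786 TPM with CCS1477. The groups were separate in both genotypes, and the rise was called in T/F (log2 0.51, SE 0.06, adjusted p = 0.00208) and not in D/F (log2 0.46, SE 0.15, adjusted p = 0.0881, both limma). With the mouse as a block Top2a was among the 20 genes added in D/F. Mki67 (Ki-67), which coats mitotic chromosomes and is the usual proliferation marker, was at 246, 192 and 220 TPM with DMSO and 394, 308 and 412 TPM with CCS1477 in D/F cells. Mki67 levels in T/F cells were 237, 234 and 187 TPM with DMSO and 449, 412 and 381 TPM with CCS1477. Mki67 rose in both, 1.69-fold in D/F (log2 0.75, SE 0.18, adjusted p = 0.0476) and 1.89-fold in T/F (log2 0.92, SE 0.12, adjusted p = 0.0024, both limma).

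Foxm1, the forkhead factor that activates many of the other genes in G2, was at 72.1, 48.8 and 63.0 TPM with DMSO and 103, 77.2 and 107 TPM with CCS1477 in D/F. In T/F cells it was at 61.0, 68.8 and 52.3 TPM with DMSO and 114, 107 and 95.7 TPM with CCS1477. It rose 1.73-fold in T/F (log2 0.79, SE 0.12, adjusted p = 0.00415, limma), and in D/F its groups did not overlap but it was not called (log2 0.64, SE 0.22, adjusted p = 0.104, limma). With the mouse as a block it was among the 20 added genes.

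Summed over the 51 genes, D/F cells held 4636 ± 651 TPM under DMSO and 5854 ± 930 TPM under CCS1477 (mean ± SD, n = 3). T/F cells held 4761 ± 313 and 6700 ± 345 TPM. The D/F sums of 3899 to 5130 TPM under DMSO and 4797 to 6552 TPM under CCS1477 overlapped. The T/F sums of 4404 to 4989 and 6314 to 6978 TPM did not. Within mice the median log2 difference of the 51 genes was 0.27, 0.30 and 0.48 in D/F mice 1, 2 and 3 and 0.49, 0.48 and 0.53 in T/F mice 1, 2 and 3, beside medians over all genes between 0.02 and 0.11. Each of the 6 mice had between 43 and 51 of the 51 genes higher with CCS1477, beside 51.1% to 58.1% of all genes.

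D/F mouse 2 stood apart from the other mice of its genotype. It had the lowest level of its group in 45 of the 51 mitotic genes with DMSO and in 49 of 51 with CCS1477, beside 23.2% and 28.1% of all genes. The DNA replication genes shared this, with mouse 2 lowest in 31 of 43 under DMSO and in 41 of 43 under CCS1477. It also had the highest Kit and Cd34 of all libraries under DMSO (149 and 447 TPM, against 50.5 to 67.0 and 95 to 201 TPM in the other DMSO libraries) and a lower Mpo and Elane than the other D/F mice. The median SD within a group of the 51 genes on the log2 scale was 0.19 and 0.23 in D/F DMSO and CCS1477, against 0.11 and 0.09 in T/F. Over genes of the table with a mean of at least 5 TPM the corresponding medians were 0.25, 0.23, 0.11 and 0.09.

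**Figure D4:**
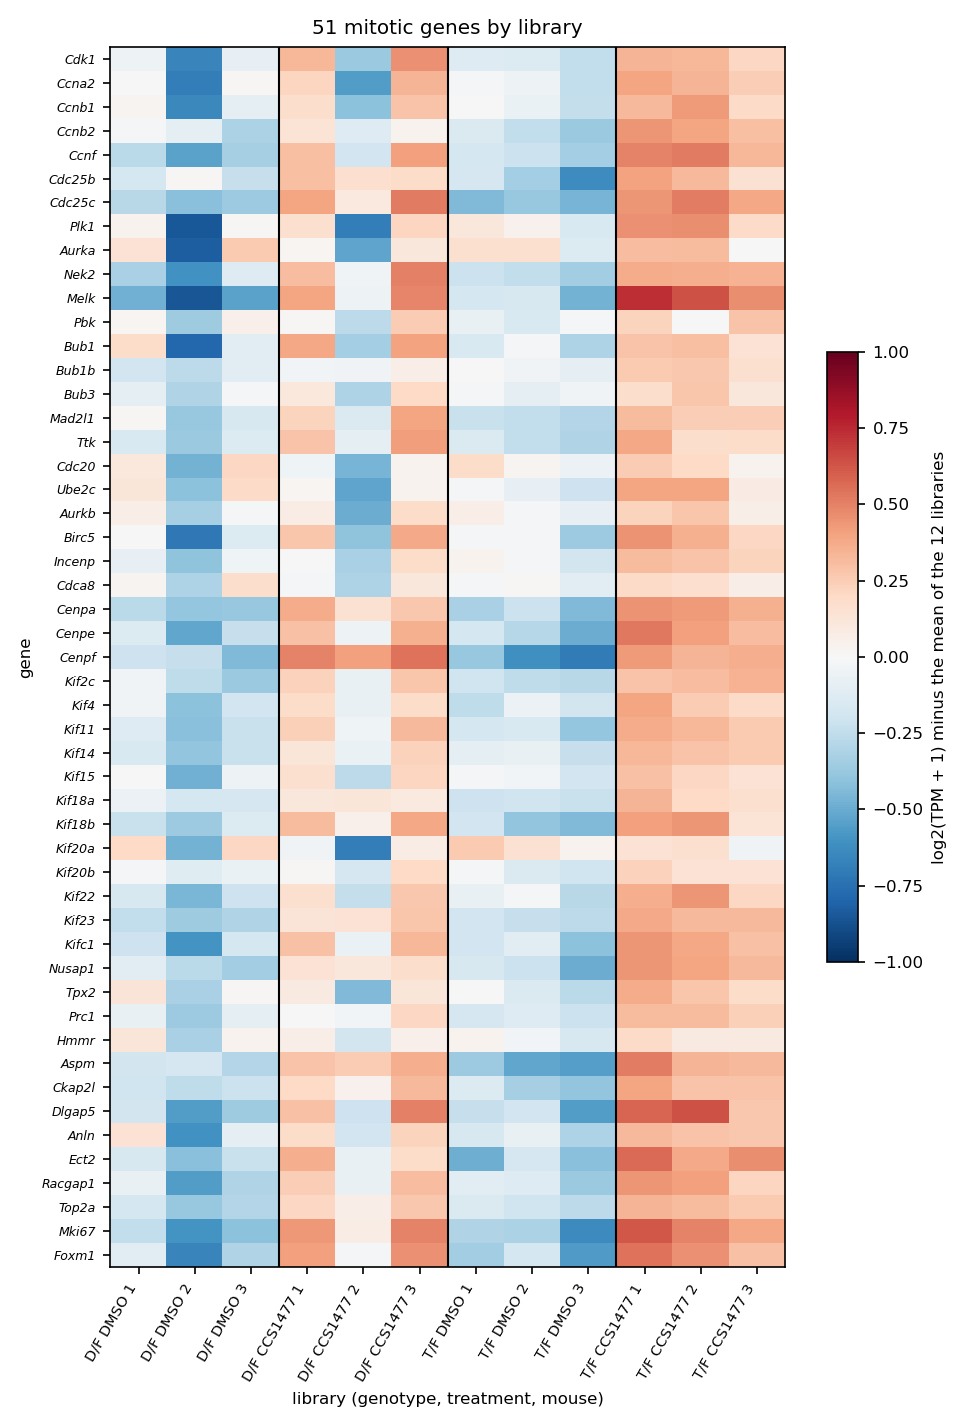
Level of each of the 51 mitotic genes (rows) in each of the 12 libraries (columns), as log2(TPM + 1) minus the mean of the 12 libraries, from blue (lower) to red (higher). The T/F CCS1477 columns are mostly red, and within each D/F treatment the column of mouse 2 is the lowest, in 45 and 49 of 51 genes.

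The label of the cells was checked against marker lists. Kit, the gene of the surface protein used for enrichment, was present in every library (22.8 to 149 TPM), and T cell and erythroid marker sums reached at most 27.4 and 27.7 TPM, with Cd3e, Cd3g and Hba-a1 not listed in the table and no listed marker of these at 0. Macrophage markers summed to between 23.7 and 107 TPM and mature neutrophil markers to between 1300 and 7366 TPM, and C1qa was not listed. The sum of 8 genes listed as Kit-positive myeloid blast markers was lower with CCS1477, with D/F groups that overlapped. D/F sums were 3626 to 10021 TPM under DMSO and 803 to 4277 TPM under CCS1477, and T/F sums were 4154 to 6379 and 1666 to 3004 TPM. Of its 8 genes, 6 fell in T/F at an adjusted p under 0.05 (limma). None passed in D/F, where Ptprc alone had a log2 difference above 0 (0.41). Mpo and Elane were far higher than Kit, at 3673, 2480 and 50.5 TPM in D/F mouse 1 under DMSO. D/F mouse 2 had the highest Kit under DMSO but the lowest sum under DMSO, so the sum did not follow Kit. Macrophage sums were also lower with CCS1477, 23.7 to 35.0 against 59.9 to 75.1 TPM in D/F and 37.2 to 48.7 against 83.0 to 107 TPM in T/F, with no overlap. Cd79b, Pax5 and Cd22, which are expressed in B cells, also had lower sums with CCS1477 without overlap, 5.5 to 11.5 against 12.8 to 26.5 TPM in D/F and 12.7 to 16.0 against 19.1 to 22.2 TPM in T/F. The part of these changes in the mitotic gene result was not tested.

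Other genes of the pathway were read from a list of 126 genes in the table that act beside the 51. In T/F cells 70 of them were higher and 10 lower with CCS1477, beside 25.8% and 17.6% of all genes. Over both genotypes 67 were higher and 10 lower, beside 25.8% and 19.6%. In D/F cells 6 were higher and 2 lower, beside 5.14% and 6.51% of all genes, so that the share of higher calls was near the background. They had median log2 fold changes of 0.20 for D/F, 0.30 for T/F and 0.26 for both genotypes. With the mouse as a block the D/F count was 40 higher and 10 lower, beside 21.4% and 18.0% of all genes. All 8 condensin genes, whose products compact chromosomes, rose in T/F and 5 of 8 over both genotypes. Kinetochore genes gave 17 of 32 higher and 1 lower over both genotypes, the anaphase-promoting complex 8 of 16 and 2, cohesin and separase 8 of 14 and none, and centrosome and spindle assembly genes 15 of 29 and 2. Of 17 other G2/M control genes 9 were higher and 2 lower, and of 10 genes of MuvB, B-Myb and their partners 5 were higher and 3 lower.

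Spc25, a subunit of the Ndc80 complex that grips microtubules, was at 76.1, 57.6 and 68.6 TPM with DMSO and 146, 111 and 167 TPM with CCS1477 in D/F cells. Spc25 levels in T/F cells were 75.2, 74.2 and 63.3 TPM with DMSO and 158, 151 and 139 TPM with CCS1477. On the log2(TPM + 1) scale it was the one gene of this list called above 2-fold in both genotypes (D/F log2 1.04, SE 0.21, adjusted p = 0.0287, and T/F log2 1.07, SE 0.09, adjusted p = 0.000834, limma). Fam83d, which takes part in chromosome alignment, was at 12.8, 10.9 and 11 TPM with DMSO and 23.9, 24.1 and 23.9 TPM with CCS1477 in D/F cells. Fam83d levels in T/F cells were 10.6, 11.3 and 10.2 TPM with DMSO and 23.8, 25.1 and 23.1 TPM with CCS1477. Its D/F rise was just below 2-fold on that scale, where the pseudocount lowers the folds of low genes, and above 2-fold as a ratio of mean TPM (D/F log2 1.00, adjusted p = 0.0121, and T/F log2 1.10, adjusted p = 0.000415, limma). Cenpj, which acts in the growth of centrioles, rose as well (D/F log2 0.87, adjusted p = 0.0205, and T/F log2 0.77, adjusted p = 0.000835, limma).

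The 3 genes with the lowest p among those that fell over both genotypes were E2f4, Mybl2 and Cdc25a, all regulators of the cell cycle. E2f4, the E2F of the DREAM repressor, was at 114, 93.9 and 127 TPM with DMSO and 63.1, 54.2 and 71.4 TPM with CCS1477 in D/F cells. E2f4 levels in T/F cells were 114, 110 and 113 TPM with DMSO and 75.2, 75.9 and 72.8 TPM with CCS1477. It fell in both genotypes without overlap (D/F log2 -0.82, SE 0.19, adjusted p = 0.0399, and T/F log2 -0.58, SE 0.06, adjusted p = 0.00102, limma). Mybl2 (B-Myb), which activates these genes with MuvB, was at 118, 77.9 and 143 TPM with DMSO and 49.7, 45 and 67.7 TPM with CCS1477 in D/F cells. Mybl2 levels in T/F cells were 113, 121 and 125 TPM with DMSO and 65.8, 61.0 and 58.0 TPM with CCS1477. Every CCS1477 sample was below every DMSO sample, and the fall was called in T/F (log2 -0.94, adjusted p = 0.000696) and over both genotypes (log2 -0.99, adjusted p = 0.000228) but not in D/F without the mouse term (log2 -1.03, adjusted p = 0.0609, limma).

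Cdc25a, a phosphatase that acts mainly at entry into S phase, was at 49.9, 37.6 and 55.9 TPM with DMSO and 24.8, 16.1 and 28.4 TPM with CCS1477 in D/F cells. Cdc25a levels in T/F cells were 54.9, 51.3 and 50.5 TPM with DMSO and 29.5, 29.0 and 29.2 TPM with CCS1477. No groups overlapped, and its direction was opposite to that of Cdc25b and Cdc25c (log2 -0.93 over both genotypes, SE 0.14, adjusted p = 0.000249, limma). Wee1, the kinase that inhibits Cdk1, was named after its values were seen and fell in both genotypes (D/F log2 -0.83, adjusted p = 0.0332, and T/F log2 -0.51, adjusted p = 0.00668, limma). Tfdp1, the dimer partner of E2F proteins, also named afterwards, fell over both genotypes (log2 -0.60, adjusted p = 0.0021, limma).

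The 43 DNA replication genes, which act in S phase, were read beside the mitotic genes. They had median log2 fold changes of -0.10 for D/F, 0.01 for T/F and -0.08 for both genotypes, with no calls in D/F (1 gene at an unadjusted p under 0.05), 10 higher and 8 lower in T/F, and 6 higher and 7 lower over both. The T/F shares were near those of all genes, 25.8% higher and 17.6% lower, and over both genotypes 25.8% and 19.6% of all genes were higher and lower. In D/F mouse 2 only 9 of the 43 were higher with CCS1477, with a median of -0.31. The other 5 mice had between 19 and 25 of 43 higher. A test of the difference between the 2 gene lists was not made.

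**Figure D5:**
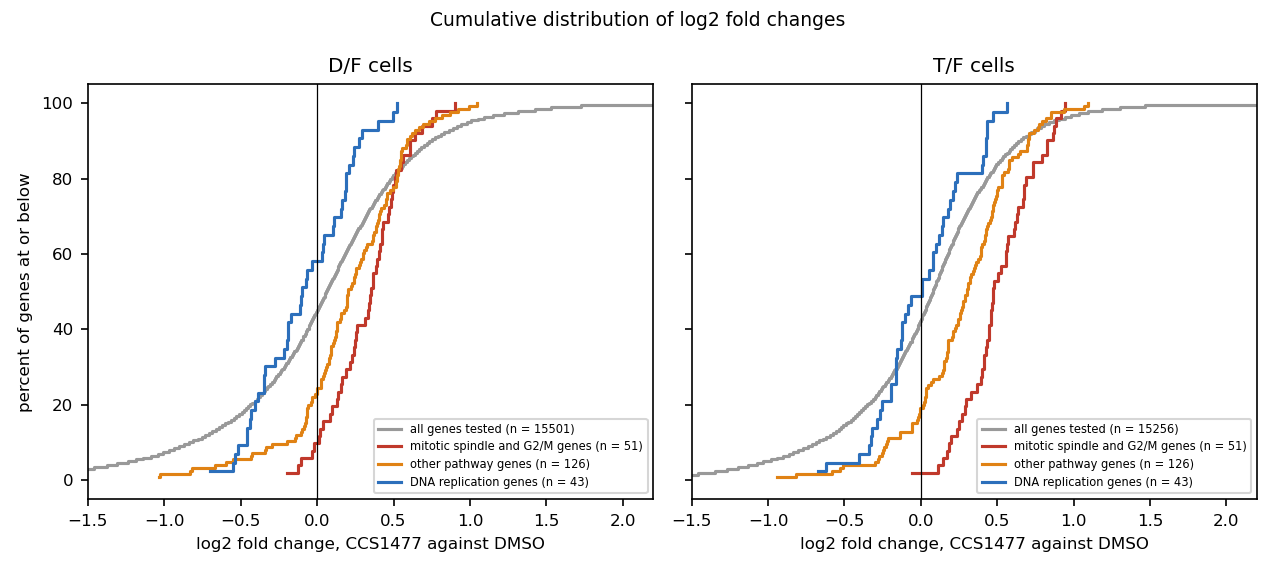
Cumulative percent of genes (y axis) at or below each log2 fold change of CCS1477 against DMSO (x axis) in D/F (left) and T/F (right) cells, for all genes tested, the 51 mitotic genes, 126 other pathway genes and 43 DNA replication genes. The mitotic curve lies to the right (medians 0.35 and 0.47), and the replication curve crosses 50% near 0 (medians -0.10 and 0.01).

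The genotypes did not differ at the threshold in these genes under DMSO. No mitotic gene was called between T/F and D/F (limma, no gene of the 51 at an unadjusted p under 0.05), beside 2 genes higher and 3 lower of the 15265 tested (0.0131% and 0.0197%). The median log2 difference was 0.02, with 2 genes of the 51 higher and 2 lower in all T/F than in all D/F samples, beside 5.17% and 7.42% of all genes. Aspm was lower in all 3 T/F than in all 3 D/F DMSO samples (log2 -0.26, 95% interval -0.54 to 0.02, adjusted p = 0.824) and Melk higher (log2 0.35, -0.03 to 0.74, adjusted p = 0.829, both limma). Cenpf had a difference of -0.27 (-0.61 to 0.07, adjusted p = 0.878, limma) with overlap.

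With CCS1477, 50 of 51 mitotic genes had a higher mean in T/F than in D/F and 16 had T/F samples that all lay above the D/F samples, beside 9.59% of all genes. None had the opposite order, beside 10.7%. No mitotic gene was called (limma, 2 of the 51 at an unadjusted p under 0.05), beside 0.0132% of all genes higher and 0.0197% lower. The median log2 difference of 0.19 came down to 0.07 without D/F mouse 2, and the count of genes higher in T/F to 42 of 51. Under DMSO leaving out that mouse moved the median from 0.02 to -0.08 and the genes higher in T/F from 31 to 9.

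The difference of the responses was tested itself, as an interaction. No gene among the 51 or among all 15583 tested passed (limma), beside 4.23% of all genes and 2 of the 51, Ccnb2 and Aspm, at an unadjusted p under 0.05. With the mouse as a block none passed either, and 14.7% of all genes and 10 of the 51 had an unadjusted p under 0.05. The log2 fold change was larger in T/F than in D/F for 50 of the 51 genes, beside 53.2% of all genes tested, and the exception was Melk. Ccnb2 had a difference of 0.48 (95% interval 0.11 to 0.84), Ect2 of 0.40 (-0.03 to 0.83) and Aspm of 0.35 (0.04 to 0.66) on the log2 scale, each with an adjusted p = 1.00 in limma. Over the 51 genes the D/F and T/F fold changes ranked alike (Pearson r = 0.89 and Spearman rho = 0.901 across genes, a description, since genes are not independent replicates, the 2 estimates share no sample and both rest on the same treatment and table).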

How the data were processed

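RNA of 12 libraries was sequenced by the authors, and per the labels the libraries were stranded. The submitters' processing notes name kallisto and the mm10 build, and the study's methods name AltAnalyze; the annotation and settings are not given in the sources used here. The authors deposited 1 table of TPM values for 15651 genes, in which no gene stays below 2.00 TPM in all libraries, and columns summed to between 914204 and 931697. TPM keeps no read counts, so the depth behind each value is unknown. Ensembl identifiers were matched to symbols through GENCODE for 15252 genes.

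Differences were tested with limma 3.58.1 (R 4.3.3) on log2(TPM + 1), two-sided, for genes whose average reached 1 TPM in at least 1 of the compared groups, with Benjamini-Hochberg adjustment over all genes tested and a call at an adjusted p under 0.05. The pipeline was tested on simulated data. Treatments of a mouse share its number in the labels, so the mouse was used as a block in an alternative fit. Deviations from group means of same-mouse samples correlated at 0.34 to 0.655. Samples of different mice reached 0.421, for D/F mouse 2 and T/F mouse 3 under DMSO. No library was left out, and all columns belonged to a sample of the labels. Other alternatives changed the pseudocount to 0.1 TPM and the filter to 5 TPM or none, or used rescaling to library medians, quantile normalization, a variance trend, a fit over 4 groups, a 2-fold limit and leaving out each mouse.

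Members and gene lists were chosen with earlier results of these data known. Values in every sample are given for genes called in both genotypes, for the gene of each role group with the lowest p and the one with the highest level over both genotypes, and for the 3 genes with the lowest p in the interaction and between genotypes under DMSO. Of other pathway genes, those above 2-fold in both genotypes and the 3 with the lowest p in each direction are named. 1 marker gene is not reported here.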

Additional observations from a re-analysis of the deposited data

Results flagged for a closer look

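Ube2c moved in opposite directions in the 2 genotypes: it was lower with CCS1477 in all 3 D/F mice and higher in all 3 T/F mice. The difference of the log2 fold changes, T/F minus D/F, was 0.52 (95% interval -0.10 to 1.13) and did not pass the interaction test (adjusted p = 1.00, limma). That fit leaves out the pairing by mouse. With the mouse as a block the SE was 0.09, and the difference again did not pass (unadjusted p = 0.00118, adjusted p = 0.171, limma). In that block fit 14.7% of all genes had an unadjusted p under 0.05. Dose and genotype cannot be told apart in this difference. Of the 51 mitotic genes it was the only one with this pattern.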

How the results depend on the processing

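The count of mitotic genes called higher in D/F cells depended most on the settings. It was 5 in the reported fit, 3 with a pseudocount of 0.1 TPM, 1 with each library rescaled to its median, 23 in a fit shared by the 4 groups, and between 0 and 15 when 1 mouse was left out. With the mouse as a replicate block, which uses the pairing of samples by animal, it was 25 in D/F, 46 in T/F (44 without it), 43 over both genotypes (34 without it) and 0 for the difference of responses (0 without it). In T/F cells leaving out 1 mouse gave between 19 and 40, and over both genotypes between 29 and 43. With a 2-fold limit the counts were 0 in D/F, 0 in T/F and 0 over both genotypes. The other settings kept the counts within 1.5 times the reported ones, and no gene was called lower under any of them in D/F, T/F or over both genotypes. The block fits called 21.4%, 31.2% and 34.5% of all genes higher in D/F, T/F and over both genotypes. For the other settings no share of all genes is set beside the counts. Those counts describe the settings and not these genes alone. The causes were not tested.

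In the comparisons of CCS1477 with DMSO, signs changed only for genes not called in the reported fit and with log2 fold changes near 0. In D/F cells with libraries rescaled to their medians, Aurka was at -0.0367, Aurkb at -0.0278 and Hmmr at -0.0107 (log2), and with quantile normalization Cdca8 was at 0.0723 and Tpx2 at 0.1041. Leaving out 1 D/F mouse gave ranges of -0.1353 to 0.0848 for Aurka, -0.0758 to 0.108 for Aurkb, -0.0083 to 0.1454 for Kif20b, -0.0824 to 0.0342 for Tpx2 and -0.0169 to 0.0771 for Hmmr. Over both genotypes Cdc20 was at -0.06 after rescaling and between -0.0312 and 0.0391 when 1 mouse was left out. Depth is unknown for TPM, and 3 mice a genotype limit the precision.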
